A study of Homo sapiens with 8 samples.

Results

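Epithelial cells make secreted defense proteins and acute phase proteins, and 9 such genes were examined here in human ovarian carcinoma cells grown in mice. The genes were DEFB4A and DEFB1 (defensins), SAA1 and SAA2 (serum amyloid A), LCN2 (lipocalin), S100A8 and S100A9 (calprotectin), and SLPI and PI3 (antiproteases). They were chosen by name with earlier results of these arrays known, and every probe whose platform gene symbol was one of the 9 was taken. That gave 11 probes, for 9 of the 18852 named genes with a probe on the array. A probe counted as detected on an array where its detection p-value was below 0.05, and detection on 4 or more arrays was required to keep it. By this filter 10 of the 11 probes, for 8 genes, were kept, and all 10 were detected on all 8 arrays. The probe of S100A8 was detected on none.

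The cells were IGROV-1, an established human ovarian carcinoma line adapted to grow in the peritoneal cavity of mice and carried there by serial passage of ascites. Mice with established ascites received either saline (4 arrays) or CpG-ODN (4 arrays), the phosphorothioate oligonucleotide ODN1826, given intraperitoneally at 20 µg per mouse, starting 10 to 11 days after the tumor cells. ODN1826 carries unmethylated CpG motifs and is widely used to stimulate mouse Toll-like receptor 9. Tumor cells adhering to the peritoneal wall were collected 24 hours after the last treatment. Treatment ran for 3 days or was given 1 time, which the labels tie to no array, and they give 4 mice per group without saying which array came from which mouse. The p-values below therefore measure the spread between arrays. All arrays carry the same line, so the results describe 1 line, and the host is a mouse whose own cells can also respond. In such bulk samples fewer cells of a type and less RNA per cell cannot be told apart.

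Beta-defensins are small cationic peptides that damage microbial membranes and also attract immune cells. Serum amyloid A proteins are apolipoproteins that increase steeply in inflammation, lipocalin 2 binds bacterial siderophores and so withholds iron, and calprotectin, a dimer of S100A8 and S100A9, withholds zinc and manganese. SLPI and elafin, the product of PI3, inhibit neutrophil serine proteases. In epithelia many of these genes are induced through NF-kB and its coactivator NFKBIZ, C/EBP factors and STAT3 downstream of interleukin 1, interleukin 17 and interleukin 6.

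Mean raw signal per array ran from 806 to 1079 and between 18425 and 20114 probes were detected, with the 4 CpG-ODN arrays below the 4 saline arrays in the number detected. Of 18184 kept probes, 26.6% differed between the groups in limma's moderated test at an adjusted p under 0.05, and of 11023 genes, each read from its brightest kept probe, 12.9% were higher and 16.3% lower with CpG-ODN. The lineage markers were largely present, with 11 of 14 IGROV-1 and epithelial markers with a named probe kept, while CDH2 and WT1 were detected on no array. Of 14 neutrophil markers 1, FCGR3B, was kept, and AZU1, CEACAM8, CSF3R, CXCR2, ELANE and PRTN3 were among the 9 detected on no array. The probe of TLR9, the receptor for CpG-ODN, was detected on no array. The probes are named for human genes, and whether they read RNA of mouse host cells was not tested. Markers not detected therefore say nothing of how many mouse cells were present.

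Of the 8 member genes kept, 3 (DEFB4A, SAA1 and SAA2) passed that test, all higher with CpG-ODN, beside 29.2% of all genes that passed either way and 12.9% that were higher, and 5 did not pass. Nothing is read from this count, because the genes were chosen with this contrast known, and their differences are given below as descriptions without p-values. The median difference over the 8 genes was 0.14 on the log2 scale, beside -0.0070 over all 11023 genes. For 4 of the 10 probes, 1 of DEFB4A and 3 of SAA1, every CpG-ODN array was above every saline array, beside 28.9% of all kept probes whose groups did not overlap in either direction and 14% with CpG-ODN higher. In the raw signal, before normalization, none of the 10 had groups that did not overlap.

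**Figure D1:**
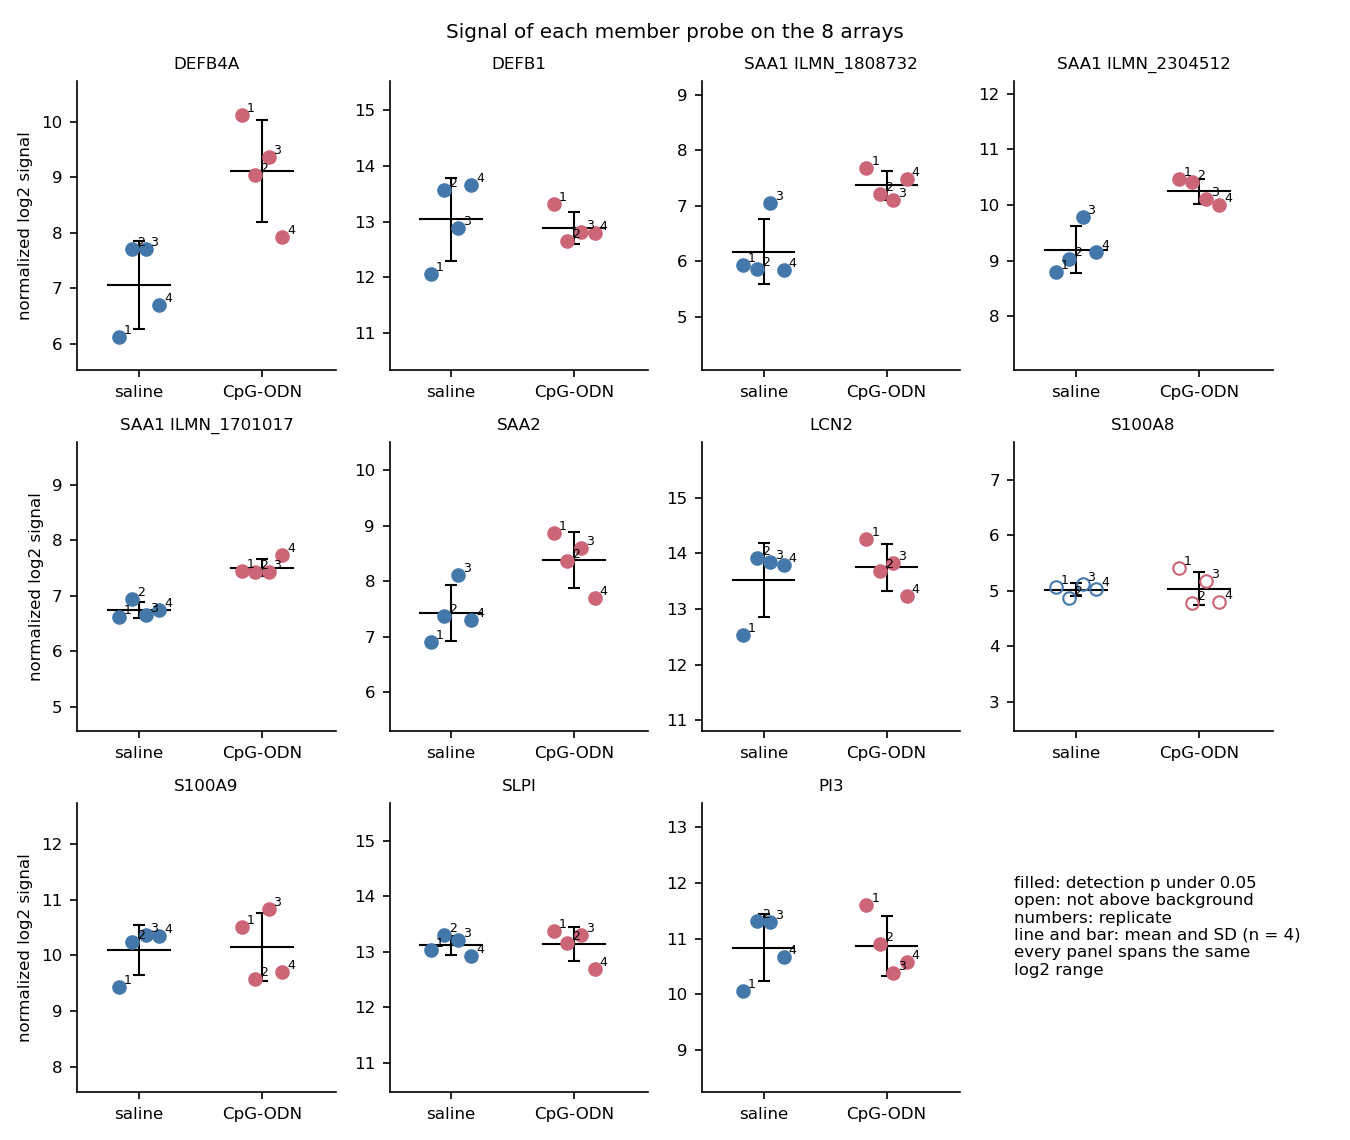
Normalized log2 intensity of the 11 probes on 4 saline and 4 CpG-ODN arrays, with the mean and SD of each group (n = 4), filled points for detected arrays and open points for arrays at background; the vertical axes span the same range but start at different levels. The DEFB4A panel and the 3 SAA1 panels have all CpG-ODN points above all saline points, and the other panels have overlapping groups.

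DEFB4A encodes beta-defensin 2, an inducible antimicrobial peptide of skin and mucosa that also attracts cells through the chemokine receptor CCR6. Its normalized log2 levels were 6.12, 7.70, 7.71 and 6.69 on saline arrays 1 to 4, and 10.13, 9.04, 9.37 and 7.92 on CpG-ODN arrays 1 to 4. The lowest CpG-ODN array lay just above the highest saline array. The mean difference was 2.06 ± 0.47 (SE, n = 4 and 4; 95% interval 1.01 to 3.10), a 4.16-fold higher level with CpG-ODN. Its raw signal was 264 to 393 on the saline arrays and 353 to 1070 on the CpG-ODN arrays, so that CpG-ODN array 4 fell below the highest saline array before normalization. The genome holds an identical copy of this gene, DEFB4B, which the probe may not tell apart.

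DEFB1 encodes beta-defensin 1, which epithelia make mostly without a stimulus. Its log2 levels were 12.06, 13.57, 12.88 and 13.67 with saline and 13.31, 12.65, 12.81 and 12.79 with CpG-ODN. The lowest and the highest of the 8 values were both saline arrays, and the groups overlapped. The difference was -0.15 ± 0.32 (SE), with an interval from -0.86 to 0.56 that leaves room for a change either way.

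Among 56 other antimicrobial genes, listed by function, 53 had a named probe and 6 were kept, with 0 higher and 0 lower in limma's test and 0 at an unadjusted p under 0.05. Their median difference was -0.09. The genes for the neutrophil peptides DEFA1, DEFA3 and CAMP, for lactoferrin (LTF), for psoriasin (S100A7) and for the skin ribonuclease RNASE7 were detected on no array, as were 34 of the 53 in all. DEFB103A, encoding beta-defensin 3, which like DEFB4A is inducible in skin, was detected on 3 saline arrays and 1 CpG-ODN array, with a difference of -0.18 ± 0.22 (adjusted p = 0.589).

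SAA1 and SAA2 encode the acute phase serum amyloid A proteins, which travel on high-density lipoprotein. They are near-identical neighbors on chromosome 11, so their probes may share transcripts, and the split between them is uncertain. The brightest SAA1 probe, ILMN_2304512, had log2 levels of 8.80, 9.03, 9.79 and 9.16 with saline and 10.47, 10.41, 10.10 and 10.00 with CpG-ODN. All 4 CpG-ODN arrays were above all 4 saline arrays, and saline array 3 was the nearest to them. The difference was 1.05 ± 0.21 (SE; interval 0.59 to 1.51), or 2.07-fold. The other SAA1 probes had the same direction. Probe ILMN_1808732 read 5.94, 5.86, 7.05 and 5.83 with saline and 7.69, 7.21, 7.11 and 7.47 with CpG-ODN, a difference of 1.20 ± 0.26 (SE). Probe ILMN_1701017 read 6.61, 6.95, 6.66 and 6.75 with saline and 7.45, 7.43, 7.42 and 7.73 with CpG-ODN, a difference of 0.77 ± 0.13 (SE). On neither did the groups overlap, although saline array 3 came within a small step of the CpG-ODN arrays on ILMN_1808732. That probe was close to background on the saline arrays, with detection p-values of 0.0237, 0.0369, 0.00264 and 0.0303.

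The SAA2 probe had log2 levels of 6.91, 7.38, 8.11 and 7.30 with saline and 8.87, 8.36, 8.59 and 7.69 with CpG-ODN. Saline array 3 was above CpG-ODN array 4, so the groups overlapped. The difference was 0.95 ± 0.29 (SE; interval 0.31 to 1.59), or 1.93-fold. Its call was lost in 9 of 22 alternatives, among them each of those in which 1 of saline arrays 1, 2 and 4 or CpG-ODN arrays 1, 2 and 3 was left out, and the difference ran from 0.55 to 1.18 over the 22.

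SAA4, the constitutive family member beside them, was not among the 9 and was tested with the other acute phase genes. It was 0.82 ± 0.17 higher with CpG-ODN (limma, adjusted p = 0.0052), at log2 levels of 5.47 to 5.88 with saline and 6.24 to 6.93 with CpG-ODN. It was detected on 2 saline arrays and on all 4 CpG-ODN arrays. The CpG-ODN arrays, where it was high, met the filter alone. Of 37 other acute phase genes, 35 had a named probe and 16 were kept, with 2 higher, SAA4 and CD14, and 0 lower, beside 12.9% and 16.3% of all genes. CD14, the lipopolysaccharide co-receptor, was 0.76 ± 0.19 higher (adjusted p = 0.0145), but it was detected on only 1 saline array and 3 CpG-ODN arrays, its groups overlapped and its call was lost with no normalization between arrays. CD14 passed the filter mostly through the group where it was high. Both calls, of SAA4 and CD14, held with no filter on detection. The median over the 16 was -0.02. C3, the central complement component, differed by -0.35 ± 0.31 (adjusted p = 0.449). The classical liver products CRP, HP, ORM1 and FGG, and PTX3, were detected on no array, and 1 of 12 hepatocyte markers, SERPINA1, was kept, with a summed level of 758 to 981 on the saline arrays and 737 to 794 on the CpG-ODN arrays, the sum of the normalized linear intensities of the listed genes.

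Promoter windows from RefSeq (GRCh38.p14), the 250 bases before the annotated start, were available for 3 of the 9 genes and for SAA4, and are printed because the inducing pathways act through factors with known short motifs. Both strands were searched for the NF-kB consensus, the C/EBP short site TTGCNNAA, the STAT site TTCNNNGAA, the AP-1 site TGANTCA and the TATA box TATAAA. Of 35116 such windows, 5.21% held the NF-kB consensus, 9.05% the C/EBP short site, 6.57% the STAT site, 6.57% the AP-1 site and 10.7% the TATA box. In the SAA4 window, written 5′ to 3′ on the gene's strand with matches in capitals, there were 3 C/EBP short sites, the nearest at -54 to -47 from the start.
SAA4 chr11:18236803-18237052 (minus strand): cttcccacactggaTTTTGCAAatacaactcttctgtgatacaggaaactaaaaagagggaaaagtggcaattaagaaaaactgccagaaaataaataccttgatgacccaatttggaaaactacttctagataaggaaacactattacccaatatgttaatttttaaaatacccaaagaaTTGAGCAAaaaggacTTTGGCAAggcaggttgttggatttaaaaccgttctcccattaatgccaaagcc
A match is a run of letters and says nothing of binding in these cells.

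LCN2 encodes lipocalin 2, also called NGAL, which binds siderophores and can form a complex with the protease MMP9. Its log2 levels were 12.54, 13.91, 13.85 and 13.79 with saline and 14.26, 13.68, 13.82 and 13.24 with CpG-ODN. Saline array 1 stood apart below the other 7 arrays, and CpG-ODN array 1 was the highest. The difference was 0.22 ± 0.31 (SE; interval -0.47 to 0.92). The LCN2 window held an NF-kB consensus at -175 to -166, a C/EBP short site at -143 to -136 and an AP-1 site at -52 to -46, shown in capitals.
LCN2 chr9:128149203-128149452 (plus strand): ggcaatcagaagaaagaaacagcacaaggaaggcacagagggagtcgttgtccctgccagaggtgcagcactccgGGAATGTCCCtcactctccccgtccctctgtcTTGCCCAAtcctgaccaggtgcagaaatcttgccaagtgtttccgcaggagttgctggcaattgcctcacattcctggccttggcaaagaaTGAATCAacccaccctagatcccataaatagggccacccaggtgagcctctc
The partner MMP9 was kept out by the filter, having been detected on 3 saline arrays and no CpG-ODN array, at log2 levels of 5.54, 7.79, 6.09 and 5.86 with saline and 4.77 to 5.26 with CpG-ODN. It was named after its values were seen and was not tested.

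S100A8 and S100A9 form calprotectin, abundant in neutrophils and induced in inflamed epithelium. The S100A8 probe had raw signals of 197, 174, 189 and 183 with saline and 199, 155, 198 and 161 with CpG-ODN, and its detection p-values ran from 0.162 to 0.930. No array separated it from background. S100A9, by contrast, was detected on every array, with log2 levels of 9.43, 10.24, 10.37 and 10.34 with saline and 10.51, 9.57, 10.84 and 9.71 with CpG-ODN. CpG-ODN arrays 1 and 3 were above every saline array, CpG-ODN arrays 2 and 4 were below all saline arrays but the first, and saline array 1 was again the lowest. The difference was 0.06 ± 0.31 (SE; interval -0.62 to 0.74). The 9 of 14 neutrophil markers that were detected on no array, and a summed level of 527 to 617 with saline and 485 to 590 with CpG-ODN, stand beside it. Of the 14 only 1 was kept, so that sum is mostly signal near background. These markers are probes named for human genes and give no count of mouse neutrophils. The S100A9 window held a TATA box at -29 to -24 and no other motif searched. S100A8 has 3 windows, and the 1 with a TATA box near its start was chosen for printing, so its TATA box is no finding. None of the 3 held another motif searched.
S100A9 chr1:153357604-153357853 (plus strand): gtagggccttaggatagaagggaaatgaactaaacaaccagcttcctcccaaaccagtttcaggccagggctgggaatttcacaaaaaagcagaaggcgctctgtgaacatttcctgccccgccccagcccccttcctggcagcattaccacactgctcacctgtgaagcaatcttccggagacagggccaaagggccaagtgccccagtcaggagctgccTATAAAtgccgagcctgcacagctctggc
S100A8 chr1:153391074-153391323 (minus strand): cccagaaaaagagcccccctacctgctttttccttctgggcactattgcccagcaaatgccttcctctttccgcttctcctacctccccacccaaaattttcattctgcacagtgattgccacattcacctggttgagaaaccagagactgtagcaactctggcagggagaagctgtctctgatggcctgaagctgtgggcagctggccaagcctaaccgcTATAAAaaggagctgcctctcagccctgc
Of 17 other S100 genes, which encode calcium-binding proteins, 11 were kept, with 0 higher and 1 lower. S100A2, an epithelial member, fell by 0.55 on the log2 scale (SE 0.15; limma, adjusted p = 0.0254), a call that held in 15 of 22 alternatives, and the median over the 11 was -0.05. S100P, which like S100A9 is a ligand of the receptor AGER, differed by 0.72 ± 0.33 (adjusted p = 0.136), and AGER was detected on no array.

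SLPI encodes an antiprotease of mucosal fluids, and PI3 encodes elafin, a related WAP-domain inhibitor that transglutaminases fix to tissue. SLPI had log2 levels of 13.04, 13.31, 13.21 and 12.93 with saline and 13.38, 13.16, 13.30 and 12.70 with CpG-ODN. The groups overlapped, and the difference was 0.02 ± 0.17 (SE; interval -0.35 to 0.39). PI3 had log2 levels of 10.06, 11.31, 11.31 and 10.67 with saline and 11.60, 10.90, 10.37 and 10.57 with CpG-ODN. Here too the lowest value was saline array 1 and the highest CpG-ODN array 1, and the difference was 0.02 ± 0.32 (SE; interval -0.69 to 0.74). The target proteases ELANE, PRTN3 and CTSG were detected on no array.

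Of 31 other secreted protease inhibitors, 26 had a named probe and 11 were kept, with 0 higher and 1 lower. The 1 was SERPINB5, the epithelial serpin maspin, at -0.91 ± 0.14 (adjusted p = 0.00115). Of 13 target proteases and binding partners 5 were kept. TGM1, a transglutaminase of cornified epithelium that crosslinks elafin, was 1.58 ± 0.25 higher (adjusted p = 0.00141), at 7.75 to 8.84 with saline and 9.70 to 10.05 with CpG-ODN. PLSCR1, a phospholipid scramblase that binds SLPI, fell by 1.34 on the log2 scale (SE 0.32, adjusted p = 0.0119). The squamous keratins KRT13 and KRT10 were also higher with CpG-ODN, by 1.44 ± 0.24 (adjusted p = 0.00178) and 0.97 ± 0.13 (adjusted p = 0.000607). These were 2 of 3 squamous markers kept of 12 named, while KRT1, KRT5, KRT14 and IVL were detected on no array. The summed level of the 12 was 3439 to 4205 with saline and 7157 to 7742 with CpG-ODN. Most of it was KRT10, at mean log2 levels of 11.50 with saline and 12.47 with CpG-ODN. That sum and DEFB4A were both higher with CpG-ODN, and the part of the sum in the DEFB4A difference was not tested. Of the macrophage markers 4 of 13 were kept, with CD14 and the brightest probe of CD68 higher and AIF1 lower. The other kept probes of CD68 differed by 0.38 (limma, adjusted p = 0.408) and 0.85 (adjusted p = 0.0567). ADGRE1, C1QB, C1QC, CSF1R, MRC1 and TYROBP were detected on no array. The summed level of the macrophage markers was 5913 to 7783 with saline and 7322 to 10939 with CpG-ODN. Most of that sum was CD68, at mean log2 levels of 12.28 with saline and 12.92 with CpG-ODN. The AIF1 call was lost without saline array 3 or CpG-ODN array 1. Of 14 IGROV-1 and epithelial markers 11 were kept, with 1 higher and 0 lower and a median of -0.08. The 1 was the keratin KRT18, 0.75 ± 0.16 higher (adjusted p = 0.00782). Its other kept probe differed by 0.49 (adjusted p = 0.08), with overlapping groups. The summed level of the 14 markers was 84124 to 89157 with saline and 72834 to 82727 with CpG-ODN. Of 12 mesothelial and fibroblast markers 7 were kept, with UPK3B 0.67 ± 0.22 higher (adjusted p = 0.0487) and LRRN4 lower, at -0.40 ± 0.13 (adjusted p = 0.0459). Those 2 calls were lost in 14 and 11 of 22 alternatives, and the list's summed level was 8618 to 10166 with saline and 8971 to 9838 with CpG-ODN. Most of that sum was MSLN, which is also among the IGROV-1 and epithelial markers, at mean log2 levels of 13.01 with saline and 12.99 with CpG-ODN. Of 9 other leukocyte markers NCAM1 alone was kept, at -0.71 ± 0.18 (adjusted p = 0.0172). It was detected on 4 saline arrays and 1 CpG-ODN array. The saline arrays, where it was high, met the filter alone, so nothing is read from its p-value. Its other probes were detected on no array, and its call was lost in 4 of 21 alternatives. PTPRC was detected on no array, and the list's summed level was 388 to 414 with saline and 347 to 390 with CpG-ODN, mostly signal near background. The part of these markers in the results was not tested.

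**Figure D2:**
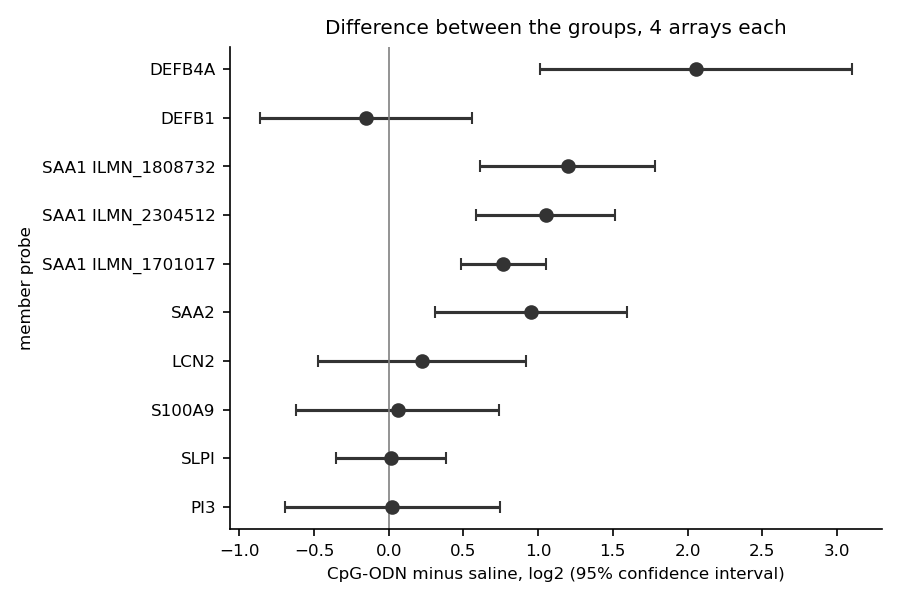
CpG-ODN minus saline difference in log2 intensity for each kept probe of the 8 genes, with the 95% interval as a bar. The DEFB4A, SAA1 and SAA2 intervals lie above 0, and those of DEFB1, LCN2, S100A9, SLPI and PI3 include 0.

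Of 17 receptors and uptake proteins for these products, 6 were kept, with 0 higher and 0 lower and 0 at an unadjusted p under 0.05 in limma's test. TLR2, TLR4, FPR1, FPR2, AGER and LRP2 were among the 7 detected on no array.

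The genes that induce the set were read next. Of 31 inducing cytokines and receptors 18 were kept, with 1 higher and 1 lower. IL1A, an epithelial alarm cytokine, fell by 1.21 on the log2 scale (SE 0.31, adjusted p = 0.0161), with levels of 7.83 to 8.24 on the saline arrays and 5.997 to 7.55 on the CpG-ODN arrays. TLR3, the receptor for double-stranded RNA, was 0.41 ± 0.11 higher (adjusted p = 0.0225), a call that held in 10 of 22 alternatives, and its other probe differed by 0.40 (adjusted p = 0.173). IL6 and TNF differed by -0.62 ± 0.43 (adjusted p = 0.324) and -0.31 ± 0.28 (adjusted p = 0.454), and IL17A and OSM were detected on no array.

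Of 56 signaling proteins and transcription factors 46 were kept, with 12 higher and 6 lower, beside 12.9% and 16.3% of all genes, and a median of 0.23. NFKBIZ, the coactivator needed for DEFB4A and LCN2 induction in epithelial cells, was 0.97 ± 0.19 higher (adjusted p = 0.00474), at 12.20 to 12.59 with saline and 13.01 to 13.91 with CpG-ODN. Its other kept probe differed by 0.64 (limma, adjusted p = 0.0572), with groups that did not overlap. TRAF6 and TAB2, which act between the interleukin 1 and interleukin 17 receptors and NF-kB, were 0.85 ± 0.18 (adjusted p = 0.00603) and 0.78 ± 0.16 (adjusted p = 0.00572) higher. JUNB, an AP-1 subunit, fell by 0.97 (SE 0.19, adjusted p = 0.00455). This list changed with some scalings. With median scaling 13 signaling genes were higher and 4 lower, and with median scaling over all probes 2 were higher and 5 lower. With no normalization between arrays 1 was higher and 4 lower, and the median difference of all kept probes was -0.15.

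Within the groups most members varied more than most other probes. A measure the choice of genes did not use is the standard deviation within a group, pooled over the 2 groups, whose median over all kept probes was 0.230 and whose 90th percentile was 0.425. Of the 10 member probes, 9 exceeded the median and 7 exceeded the 90th percentile. DEFB4A had 0.854, above 99.9% of kept probes, and PI3, DEFB1, LCN2 and S100A9 had between 0.537 and 0.570. SAA1 probe ILMN_1701017 was the exception, at 0.147.

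**Figure D3:**
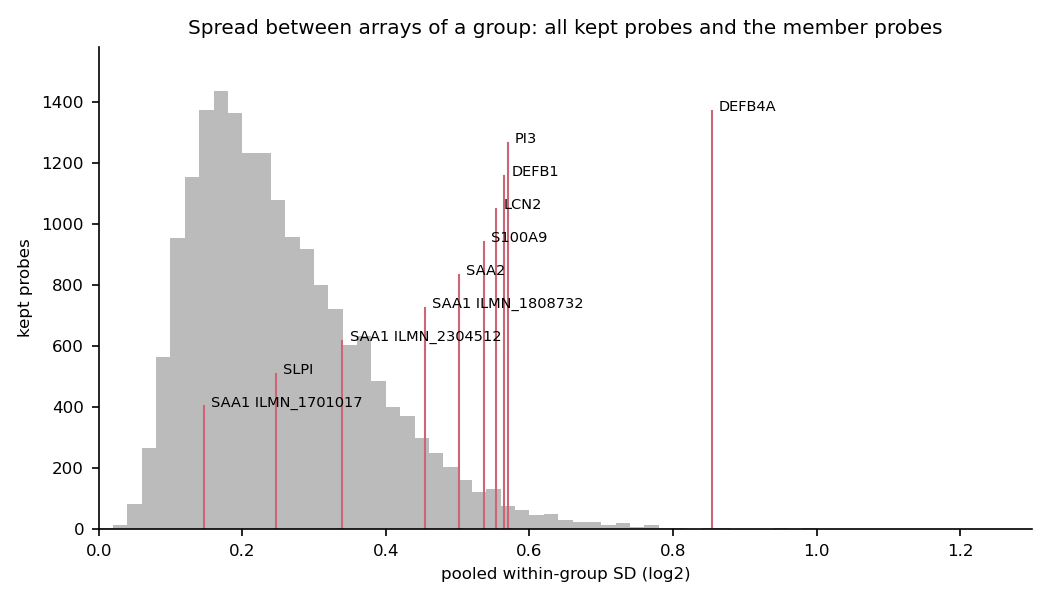
Pooled within-group standard deviation in log2 intensity for all kept probes as a histogram, with the 10 member probes as vertical lines whose heights only separate their labels. Of the 10 lines, 7 lie to the right of 0.425, the 90th percentile.

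The members also varied together. Of the 28 pairs of the 8 genes, 28 had a positive correlation of their deviations from the group means over the 8 arrays, from 0.21 to 0.90 with a median of 0.67. All genes on an array share its scaling. With median scaling 28 pairs were positive, and with median scaling over all probes or no normalization between arrays 27 were. The part of scaling in the size of these correlations was not tested. Over all 60747753 pairs of kept genes 50.2% were positive and the median was 0.002. The highest were DEFB4A with SAA2 (0.90) and with SLPI (0.90), DEFB4A with LCN2 (0.86), SAA1 with SAA2 (0.85) and DEFB1 with LCN2 (0.84). DEFB4A and LCN2 shared this variation although their mean differences between the groups were 2.06 and 0.22. On saline array 1 all 8 genes were below their group mean, by 0.08 for SLPI and by up to 0.99 for DEFB1 and LCN2, and 8 of the 10 probes had their lowest level of all 8 arrays there. That array had the highest mean raw signal. Among the saline arrays alone, 8 of the 10 probes were lowest there in normalized levels and 5 in the raw signal. Without it 26 of the 28 pairs were positive, with a median of 0.57 and a lowest value of -0.44, and leaving out any other array kept all 28 positive. On CpG-ODN array 1 all 8 genes were above their group mean, and it was the highest of the CpG-ODN arrays for 8 of the 10 probes. The correlations are a description of these arrays, with no test.

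**Figure D4:**
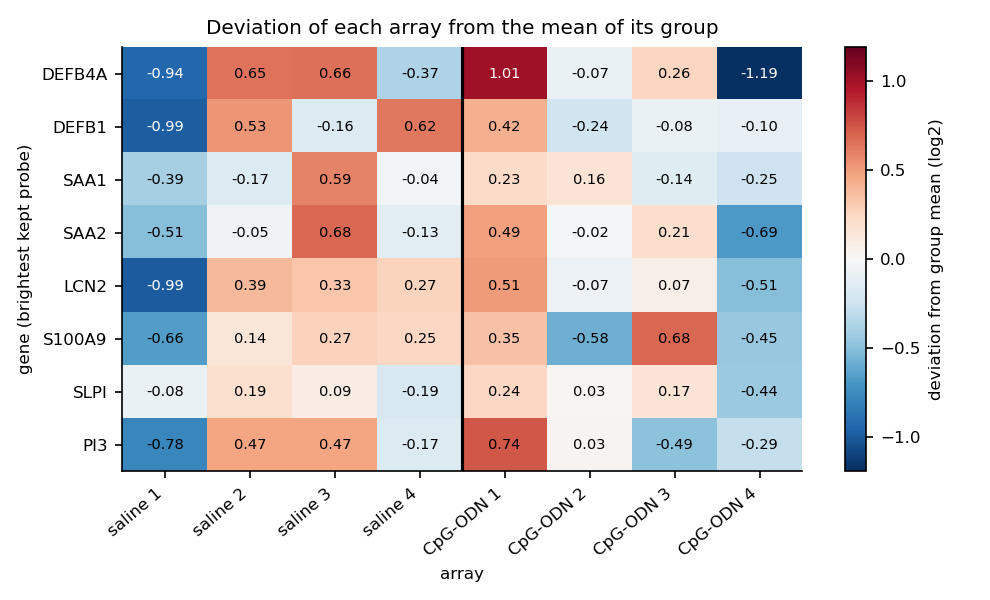
Heat map of the deviation of each gene's log2 level (rows, brightest kept probe) from its group mean on each of the 8 arrays (columns), with the value in each cell. The saline array 1 column is negative and the CpG-ODN array 1 column positive for all 8 genes.

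By the rule fixed for naming, each gene's closest genes were those with the highest correlation over the 8 arrays. They were picked as the highest among the 11023 kept genes, with only 8 arrays. These correlations include the difference between the groups, and they are a description with no test. For DEFB4A these were SELENOK (0.99, and 0.96 for deviations from group means), NEDD9 and SPRY4. For SAA2 they were SPRY4, DEFB4A and SELENOK, and for LCN2 they were C12orf57, HLA-DMB and TAOK1. For DEFB1 they were ACP3, VNN1 and CD99L2, and for SAA1 they were MPPE1, DKFZP586I1420 and LETMD1. S100A9 was closest to CACNA1B, VBP1 and POM121L10P. SLPI was closest to RNF217 (0.98), RELB (0.93) and DAAM1 (0.93), and PI3 to TAX1BP3, PROM1 and MAN2B2.

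Some list genes varied with the members within the groups. The median correlation of deviations with the 8 members was 0.80 for C3 and 0.79 for LRG1, then 0.76 for NFKBIA, 0.73 for SERPINA3, 0.71 for IRAK2, 0.70 for ZC3H12A and 0.67 for IL6 and for NFKBIZ. NFKBIZ was higher with CpG-ODN, IRAK2, a kinase of the interleukin 1 receptor pathway, fell by 0.93 on the log2 scale (SE 0.19, adjusted p = 0.00623), and C3, LRG1, NFKBIA, SERPINA3 and IL6 did not pass the test. ZC3H12A, a ribonuclease that degrades inflammatory transcripts, was 0.75 ± 0.22 higher (adjusted p = 0.0277), but its groups overlapped and its call was lost in 7 of 22 alternatives, among them those without saline array 1 or 4 or CpG-ODN array 1 or 2. These genes were named for this likeness after their values were seen. Of the 46 signaling genes 35 had a median above 0, and of the 16 acute phase genes 12 did, beside 5471 of 11023 genes. Of the 18 cytokines and receptors 11 did, with a list median of 0.03. Of the 6 receptors and uptake genes 0 did. Of the 3 squamous markers kept 0 did, with a list median of -0.32. TRAF6, a signaling gene higher with CpG-ODN, had a median of -0.40.

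**Figure D5:**
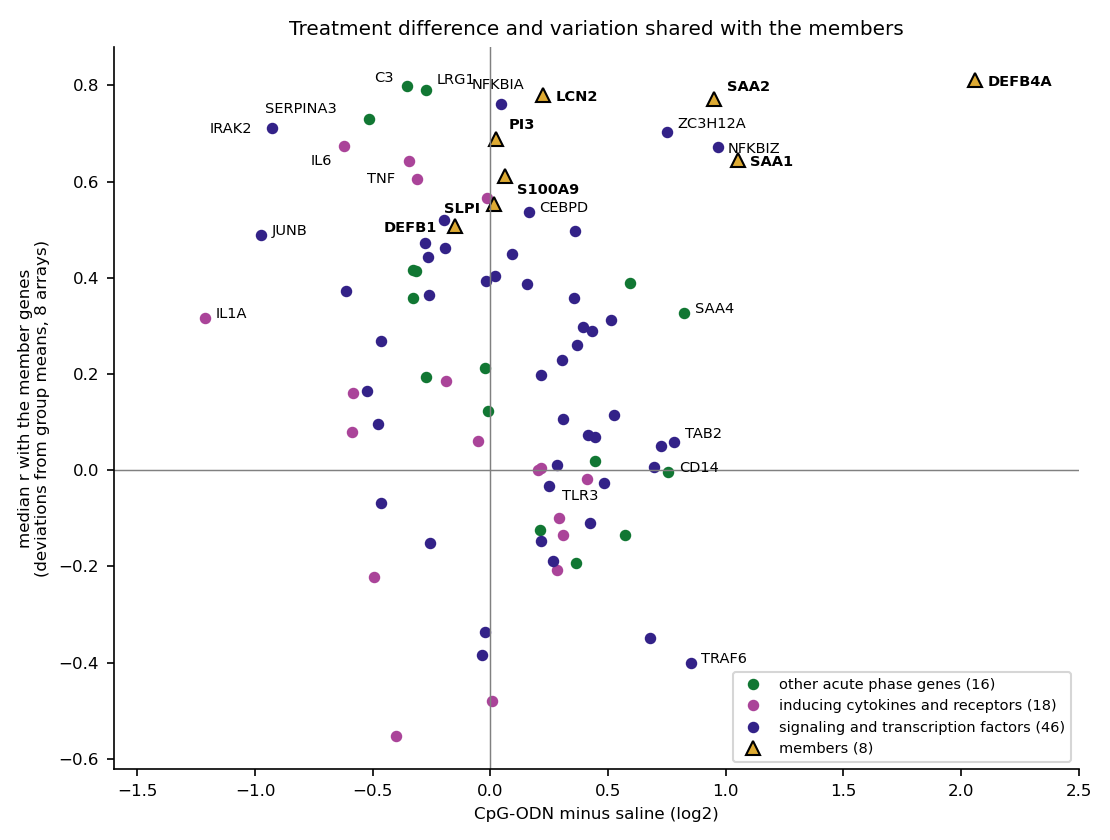
CpG-ODN minus saline difference in log2 intensity (horizontal) against the median correlation with the 8 member genes of deviations from group means over the 8 arrays (vertical), for the kept acute phase, cytokine and signaling genes and the members. C3 and LRG1 lie near the top with negative differences, and NFKBIZ lies with SAA1 and SAA2 at the upper right.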

How the data were processed

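Total RNA of IGROV-1 cells was measured on 1-colour Illumina bead arrays, 8 arrays in all, 4 saline and 4 CpG-ODN, grouped by the treatment in the labels. The deposited intensity values, average bead signals, came before any normalization, per the file headers, and each had a deposited detection p-value. Per the submitters' processing notes, BeadStudio was used. A further table of intensity values that the authors normalized, by a method not stated in the sources used here, served as an alternative. Signals were background-corrected from the detection p-values (neqc, offset 16) and quantile normalized with limma 3.58.1 in R 4.3.3. Of 48797 probes, 18184 with a detection p under 0.05 on at least 4 arrays were kept, and 14584 of these had 1 gene symbol, 3 several and 3597 none. Groups were compared with lmFit and eBayes, in a two-sided test at 0.05, after Benjamini-Hochberg adjustment across the kept probes. A gene was read from its brightest kept probe. The procedure was tested on simulated data. The number of arrays limits the precision.

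The members and gene lists were chosen with earlier results of these data known, so members carry no p-value. The text names every member, up to 4 genes with the smallest p among those called from each list, TLR9, the 3 genes most like each member and the called cell type markers, and it says where another gene was named after its values were seen. Motifs and the genes beside the members were chosen after the data were seen. The members' proportion of covarying pairs is given with no test. Replicate numbers did not pair the arrays: the correlations of deviations between same-numbered arrays were 0.02, -0.05, -0.27 and 0.09.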

Additional observations from a re-analysis of the deposited data

Results flagged for a closer look

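In groups of 4 arrays, a probe was looked at again where the gap between its most extreme array and the next, divided by the group's whole range, passed Dixon's 95% critical value for 4 values. Of 76 groups examined, 5 passed, and chance gives about 1 in 20. For LCN2, saline array 1 was far below the other saline arrays at a log2 level of 12.54, with a ratio of 0.9121. The same array was far below the others for S100A9, at 9.43, with a ratio of 0.8578. For SAA1 probe ILMN_1808732, saline array 3 was far above the others at 7.05, with a ratio of 0.9134. For SAA1 probe ILMN_1701017, CpG-ODN array 4 was far above the others at 7.73, with a ratio of 0.9098. For AIF1, a macrophage marker, CpG-ODN array 1 was far below the other CpG-ODN arrays at 8.01, with a ratio of 0.9468.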

How the results depend on the processing

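Across 22 alternatives DEFB4A stayed higher by 1.25 to 2.46 and the brightest SAA1 probe by 0.84 to 1.25, each past the threshold except when a 1.5-fold change was tested. SAA1 probe ILMN_1808732 ran from 0.46 to 1.49 and ILMN_1701017 from 0.34 to 0.84, over 21 alternatives each, and the latter also lost its call with no normalization. DEFB1, LCN2, S100A9, SLPI and PI3 passed in none. Testing against a 1.5-fold change left 470 probes, 0 member genes, 1 target protease or partner and 0 genes in each of the acute phase, S100, inhibitor, cytokine and signaling lists. Leaving out 1 array at a time gave 3866 to 4266 probes, 2 to 3 member genes, 0 to 1 antimicrobial, 2 to 4 acute phase, 0 to 2 S100, 1 to 2 inhibitor, 2 target, 0 receptor, 1 to 3 cytokine and 12 to 15 signaling genes, 26 to 28 positive pairs, 4 to 5 probes without overlap and 5 to 7 probes past the 90th percentile of spread. Acute phase calls were 1 with detection p under 0.01 and 4 with the mean of all probes. S100 calls were 2 with no background correction, the authors' table, detection p under 0.01 or the replicate block, 0 with no filter and 3 with the mean of all probes. Inhibitor calls were 3 with no background correction, median scaling, the authors' table or a mean-variance trend, and 2 with offset 50, detection p under 0.01 or no filter. Receptor calls were 1 with the mean of all probes. Cytokine calls were 1 with median scaling over all probes, detection on 1 array or no filter, and 4 with no normalization or the mean of all probes. Signaling calls were 7 with median scaling over all probes, 5 with no normalization, 11 with no filter and 11 with the replicate block. Member probes without overlap were 2 with median scaling over all probes and 1 with no normalization, and probes past the 90th percentile were 4 with no normalization. The replicate block called 3954 probes and the same number of member genes, 3, and 1 of 8 arrays correlated best with its own number. Of the probes called, 47.9% were higher with CpG-ODN, against 57.2% with median scaling, 23.6% with median scaling over all probes and 18.5% with no normalization, where the median of all probes was 0.01, 0.10, -0.10 and -0.15. Median scaling over all probes and the counts of pairs, overlap and spread were added after seeing the data. The cause of these changes was not tested. Signal over background limits CD14, SAA4, DEFB103A, NCAM1 and PLSCR1, each not detected on some arrays.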

Other observations

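The genes beside the members on the chromosomes did not share 1 direction. Next to SAA1 on chromosome 11, in RefSeq order, HPS5, which encodes a part of a complex for lysosome-related organelles, differed by -0.9996 ± 0.12 (limma, adjusted p = 0.000365), and GTF2H1, which encodes a subunit of the transcription factor TFIIH, differed by -1.78 ± 0.17 (adjusted p = 0.000125). LDHA, beyond them, differed by -0.10 ± 0.11 (adjusted p = 0.531), while SAA4 on the other side was higher. Beside LCN2 on chromosome 9, BBLN differed by 0.64 ± 0.15 (adjusted p = 0.00923) and SWI5 by -0.62 ± 0.19 (adjusted p = 0.0316).

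The probes of CCR6, the receptor for beta-defensin 2, disagreed. Probe ILMN_2387696 was detected on all 8 arrays with a mean log2 level of 15.20 ± 0.28 (SD, n = 4) with saline and 15.02 ± 0.49 with CpG-ODN. ILMN_1690907 was detected on 5 arrays and ILMN_1759635 on 0, at mean saline levels of 5.93 and 5.04. CCR6 was read among the receptors from ILMN_2387696, and whether that probe measures CCR6 was not tested.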
